A study of Mus musculus with 13 samples.

Results

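The enzymes with which hepatocytes break down amino acids were followed in mouse liver on a high-fat diet, with the drug canagliflozin and under caloric restriction. The set was named gene by gene: 37 genes of amino acid breakdown, each taken where a probe set carried that single gene symbol, with the brightest probe set per gene over all 13 arrays. Of the 37 genes, 34 had such a probe set, out of 22180 genes with one, and all 34 were bright enough to be among the 13308 genes tested. Sds, Sdsl and Gls2, which encode serine dehydratase, its relative and the liver glutaminase, were not analysed here, so no enzyme of the serine and threonine group is included.

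The study asked what canagliflozin changes in hepatic transcription, beside obese controls and beside a weight-matched control. Male C57Bl/6J mice were 6 weeks old when all of them began a diet with 60% fat, which they ate without limit for 4 weeks to become obese. For 4 more weeks 1 group stayed on that diet (HFD, 4 arrays), 1 group received canagliflozin at 25 to 30 mg/kg with it (CANA, 4 arrays), and 1 group was restricted in calories by 15 to 30% so that its weight followed that of the drug group (CR, 5 arrays). No lean or chow-fed group is among the samples, so no difference is set against lean mice. Canagliflozin blocks SGLT2, the transporter that reclaims glucose from urine in the kidney. The labels do not say whether each array is a separate animal, so p-values measure the spread between these arrays, which may be technical.

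Amino acids that are not used for protein lose their nitrogen and are taken apart to a few intermediates of carbohydrate and ketone metabolism. Most of that work is done in hepatocytes, above all around the portal vein, where the freed nitrogen enters the urea cycle. The genes are known to respond to glucagon, glucocorticoids and insulin, so that fasting and high-protein feeding raise many of them. In whole liver RNA, fewer cells of a type and less RNA per cell cannot be told apart.

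All values are log2 expression values, so a difference of 1 is a doubling, and the brightness of different probes is not compared. Array medians lay between 4.07 and 4.13, and pairs of arrays correlated at 0.977 to 0.989 across genes. Arrays also carry a serial number in their labels: replicates 1 and 2 of HFD and CANA and replicates 1 to 3 of CR have numbers from 1 to 8, and the others have 9 to 14. The cut after 8 was made here and is not stated in the labels. A gene was called when its Benjamini-Hochberg adjusted p over all 13308 genes, from 1 limma fit to the 13 arrays, was under 0.05. CANA enters 2 of the 3 comparisons, and so do HFD and CR, so the comparisons share arrays and are not independent of each other. General hepatocyte markers were present: 9 of 10 listed genes were tested, among them albumin (Alb), which lay at 13.97 ± 0.05 in CANA, 14.02 ± 0.08 in HFD and 14.03 ± 0.02 in CR (SD, n = 4, 4 and 5).

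In livers of canagliflozin-treated mice, Slc25a22, which carries glutamate into mitochondria, rose to 1.99 times its level on the diet alone. It was the only enzyme or carrier of the set that passed the test in any comparison. Genes for tyrosine breakdown (Tat, Hgd), tryptophan breakdown (Kynu), glyoxylate disposal (Agxt), cysteine formation (Cth), lysine breakdown (Aass), ornithine breakdown (Oat) and phosphoethanolamine breakdown (Etnppl) lay 0.28 to 0.93 above HFD without passing it. Caloric restriction moved none of the 34 past the test, with differences between -0.19 and 0.28. With the drug, 3 of 4 genes of histidine breakdown, 2 of 3 of proline and hydroxyproline and 2 of 3 of alanine and aspartate lay below HFD, without passing the test.

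The promoters of Slc25a22 and Etnppl are shown because these genes had the smallest limma p between CANA and HFD. Cth, the next by p, had no entry among the promoter sequences used. Each sequence is the 250 bases before the outermost annotated start, from RefSeq on build GRCm38.p6, written 5′ to 3′ on the gene's strand, with motif matches in capitals. The Slc25a22 promoter lies at chr7:141437875-141438124 on the minus strand, and that of Etnppl at chr3:130617198-130617447 on the plus strand.
Slc25a22: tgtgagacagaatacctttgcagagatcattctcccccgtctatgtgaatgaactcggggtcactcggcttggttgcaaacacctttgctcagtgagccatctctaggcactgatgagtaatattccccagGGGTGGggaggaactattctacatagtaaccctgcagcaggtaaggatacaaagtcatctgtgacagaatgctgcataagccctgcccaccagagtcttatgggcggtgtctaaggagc
Etnppl: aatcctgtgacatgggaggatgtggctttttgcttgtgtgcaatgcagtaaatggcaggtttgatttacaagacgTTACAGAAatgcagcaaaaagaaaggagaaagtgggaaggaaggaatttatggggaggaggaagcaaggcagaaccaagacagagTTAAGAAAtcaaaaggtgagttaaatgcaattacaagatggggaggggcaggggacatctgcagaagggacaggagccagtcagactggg
In the Slc25a22 promoter the capitals mark 1 match of CCACCC, a box read by KLF factors such as KLF15, on the other strand at position -119. In the Etnppl promoter they mark 2 matches of TTNCNNAA, a loose form of the C/EBP element, at -175 on the gene's strand and at -90 on the other. Both genes also have inner annotated starts, whose windows are not printed. Before the inner Slc25a22 start at 141434594, CCACCC matched at -161 and -109 and TTNCNNAA at -213. Before its other inner start, at 141435375, no motif searched for matched. Before the inner Etnppl start at 130617575, TTNCNNAA matched at -217.

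Both motifs are common. The set had 35 annotated promoters, of 30 of its genes, with those of inner starts among them. CCACCC was found on either strand in 28.1% of all 32851 promoters of this length and in 14 of the 35 (40%). TTNCNNAA was found in 36.8% of all promoters and in 14 of 35 of the set's (40%). The full cAMP response element TGACGTCA was in 1.55% of all promoters and in 0 of 35, and its core TGACG, which lies inside it, in 17.8% and in 2, those of Aass and Ftcd. The forkhead element GTAAACA was in 3.17% and in 0, the strict C/EBP element TTGCGCAA in 0.164% and in 0, and the glucocorticoid receptor half-site TGTTCT in 16.1% and in 3. The HNF4 element CAAAGTCCA was in 0.384% and in 1, that of Aadat, and the TATA box TATAAA in 12.4% and in 5. A match describes these letters and shows no binding, and a window without one says nothing about the factor.

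The drug against the diet alone was the first comparison. Of 34 genes, 1 was called higher in CANA and 0 lower, where 0.128% of all 13308 genes were called higher and 0.0376% lower. Of the 34, 23 had a CANA mean above the HFD mean, where 46.1% of all genes did, and the median difference was 0.09 against -0.01 over all genes. At an unadjusted limma p under 0.05, 9 of 34 were higher and 0 lower, where 3.63% and 5.19% of all genes were. The 34 were brighter than most genes behind these shares. Except for Bcat2 at 66.6, each lay at percentile 90.1 or above of the gene means. The part of brightness in these counts was not tested. In 5 of 34 every CANA array lay above every HFD array, namely Slc25a22, Cth, Hgd, Kynu and Agxt, and in 0 the reverse held, where 2.13% and 2.77% of all genes were so separated. Those 4 other genes did not pass the adjusted test.

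Glutamate lies at the centre of these pathways, since most amino acids hand their nitrogen to it. Slc25a22 read 8.97, 8.82, 9.75 and 9.65 in HFD, 10.01, 10.25, 10.52 and 10.38 in CANA and 9.27, 9.55, 9.72, 9.65 and 9.69 in CR. All 4 CANA arrays were above all 4 HFD and all 5 CR arrays, while the HFD arrays split into a lower pair, replicates 1 and 2, and a higher pair, replicates 3 and 4, that lay near the highest CR arrays. CANA exceeded HFD by 0.99 (SE 0.19, 95% interval 0.59 to 1.39, limma adjusted p = 0.0488), and CANA exceeded CR by 0.71 (SE 0.18, adjusted p = 0.185), a difference that did not pass. The difference from HFD was 1.23 within serial numbers 1 to 8 and 0.75 within 9 to 14. The call was lost without any 1 of HFD replicates 1, 2 or 4 (adjusted p = 0.128, 0.128 and 0.0591), CANA replicates 2, 3 or 4 (0.0974, 0.174 and 0.113) or CR replicates 1, 2, 3 or 4 (0.0565, 0.0735, 0.0514 and 0.0540), with differences of 0.83 to 1.11 in these fits. Glud1, the glutamate dehydrogenase that frees ammonia from glutamate in the same compartment, lay the other way, at 11.27 ± 0.16 in CANA, 11.42 ± 0.17 in HFD and 11.48 ± 0.12 in CR (SD), with a CANA minus HFD difference of -0.14 (adjusted p = 0.785).

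**Figure D1:**
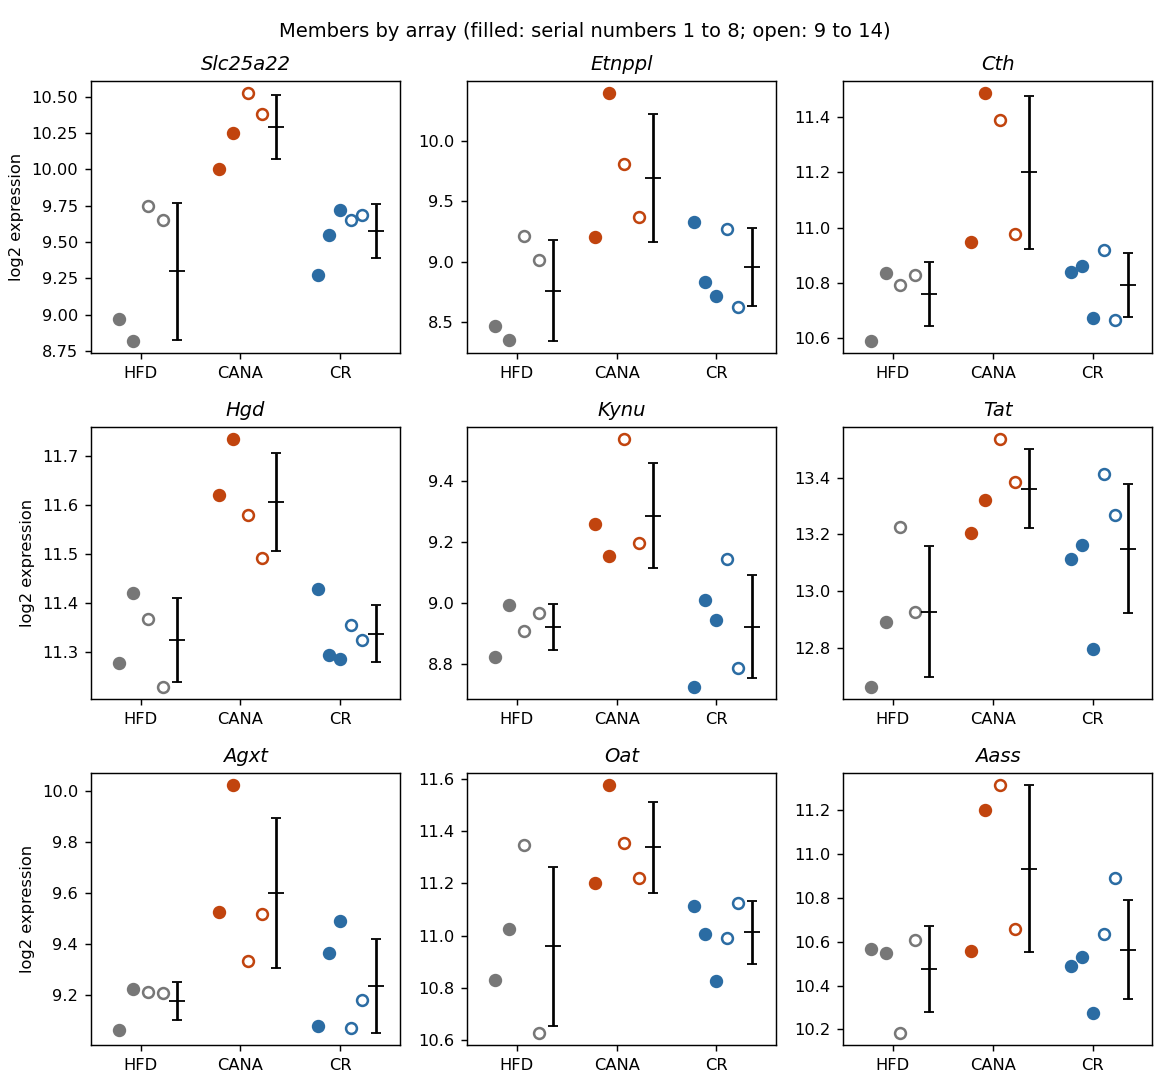
Log2 expression (vertical axis, scaled separately in each panel) of 9 genes in every array of the groups HFD, CANA and CR (horizontal axis), with filled points for serial numbers 1 to 8 and open points for 9 to 14. Bars give the mean ± SD of each group (n = 4, 4 and 5). The CANA points of Slc25a22 lie between 10.01 and 10.52, above all other arrays, while those of Etnppl spread from 9.21 to 10.39.

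Etnppl breaks down phosphoethanolamine with an enzyme of the aminotransferase family, and had the largest CANA minus HFD difference after Slc25a22. Etnppl read 8.47, 8.36, 9.21 and 9.01 in HFD, 9.21, 10.39, 9.80 and 9.37 in CANA and 9.33, 8.83, 8.72, 9.27 and 8.63 in CR. The highest HFD array, replicate 3, lay just above the lowest CANA array, replicate 1, both 9.21 after rounding, and 2 CR arrays lay above the lowest CANA array. The CANA minus HFD difference was 0.93 (SE 0.25, limma adjusted p = 0.192). It was 1.39 within serial numbers 1 to 8 and 0.47 within 9 to 14, and 0.70 without CANA replicate 2, the highest array (adjusted p = 0.355). CANA minus CR was 0.74 (SE 0.24, adjusted p = 0.358).

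Tyrosine breakdown had all 4 of its genes above HFD with the drug and with restriction, at a median of 0.23 and 0.08. Tat makes the first step, the transfer of nitrogen from tyrosine. Tat read 12.66, 12.89, 13.23 and 12.93 in HFD, 13.21, 13.32, 13.53 and 13.38 in CANA and 13.11, 13.16, 12.80, 13.41 and 13.27 in CR. The CANA values started at 13.21, just below the highest HFD array at 13.23, and CR lay between the other groups on average. The difference was 0.43 for CANA minus HFD (SE 0.14, limma adjusted p = 0.286), 0.22 for CR minus HFD and 0.21 for CANA minus CR.

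Hpd, the dioxygenase of the second step, followed at a smaller size. Hpd read 12.81, 12.81, 12.90 and 12.95 in HFD, 13.07, 13.16, 13.06 and 12.91 in CANA and 13.08, 12.92, 12.79, 12.95 and 12.99 in CR. Its CANA minus HFD difference was 0.18 (adjusted p = 0.596), with the lowest CANA array below the highest HFD array. Hgd is the dioxygenase that opens the ring of homogentisate. Hgd read 11.28, 11.42, 11.37 and 11.23 in HFD, 11.62, 11.73, 11.58 and 11.49 in CANA and 11.43, 11.29, 11.28, 11.36 and 11.32 in CR. No HFD or CR array reached the lowest CANA array at 11.49. CANA exceeded HFD by 0.28 (SE 0.08, limma adjusted p = 0.259) and CR by 0.27 (adjusted p = 0.305), while CR and HFD differed by 0.01. Fah, the last enzyme of the path, had 11.13 ± 0.05 in CANA and 11.09 ± 0.08 in HFD (SD, n = 4 each), a difference of 0.04 with a 95% interval of -0.14 to 0.21.

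Tryptophan breakdown was mixed along its course. Tdo2, which opens the indole ring, had a CANA minus HFD difference of 0.12 (limma adjusted p = 0.815), and its CANA replicate 2 stood at 12.28 against 11.83 to 11.96 in the other 3. Kmo hydroxylates kynurenine. Kmo read 10.68, 10.76, 10.66 and 10.70 in HFD, 10.68, 11.08, 10.93 and 10.88 in CANA and 10.63, 10.74, 10.72, 10.61 and 10.70 in CR. In CANA 3 of 4 arrays lay above all others, and replicate 1 lay among them, for a difference of 0.19 from HFD (adjusted p = 0.568) and 0.21 from CR (adjusted p = 0.542).

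Kynu, the kynureninase of the following step, separated more clearly. Kynu read 8.82, 8.99, 8.91 and 8.97 in HFD, 9.26, 9.15, 9.54 and 9.20 in CANA and 8.72, 9.01, 8.94, 9.14 and 8.79 in CR. Every CANA array lay above every HFD and CR array, the nearest being CANA replicate 2 at 9.15 and CR replicate 4 at 9.14. The difference was 0.37 from HFD (SE 0.11, limma adjusted p = 0.259) and 0.37 from CR (SE 0.10, adjusted p = 0.281). Its CANA minus HFD difference was larger within serial numbers 9 to 14, at 0.43, than within 1 to 8, at 0.30. Haao, which acts next on the route to NAD, lay the other way, at -0.18 against HFD (adjusted p = 0.735) and -0.23 against CR (adjusted p = 0.598).

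Lysine breakdown starts with Aass, an enzyme that joins lysine to 2-oxoglutarate and splits the product. Aass read 10.57, 10.55, 10.19 and 10.61 in HFD, 10.56, 11.20, 11.31 and 10.66 in CANA and 10.49, 10.53, 10.27, 10.63 and 10.89 in CR. CANA replicates 2 and 3 were the highest of all arrays, while replicates 1 and 4 lay within the range of CR. The difference of 0.46 from HFD (SE 0.17, limma adjusted p = 0.416) and of 0.37 from CR (adjusted p = 0.557) did not pass. Aadat, an aminotransferase of a later step, varied with the serial numbers. Aadat read 10.52, 10.27, 9.97 and 9.93 in HFD, 10.41, 10.66, 10.07 and 9.92 in CANA and 9.94, 10.10, 10.26, 9.89 and 9.74 in CR. The HFD arrays with low serial numbers had 10.52 and 10.27 and those with high ones 9.97 and 9.93, and CANA minus HFD was 0.09 (adjusted p = 0.938).

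Oat turns ornithine into a precursor of glutamate and is known as a pericentral enzyme. Oat read 10.83, 11.02, 11.35 and 10.63 in HFD, 11.20, 11.58, 11.35 and 11.22 in CANA and 11.12, 11.00, 10.82, 10.99 and 11.12 in CR. All CANA arrays exceeded all CR arrays, but HFD replicate 3, at 11.35, lay above CANA replicates 1 and 4. CANA lay 0.38 above HFD (SE 0.14, limma adjusted p = 0.393) and 0.33 above CR (SE 0.13, adjusted p = 0.524).

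Cth, which makes cysteine from cystathionine, was the sulphur enzyme with the larger difference. Cth read 10.59, 10.83, 10.79 and 10.83 in HFD, 10.95, 11.49, 11.39 and 10.98 in CANA and 10.84, 10.86, 10.67, 10.92 and 10.66 in CR. The CANA arrays started at 10.95 and 10.98, just above the highest CR array at 10.92, and 2 of them reached 11.39 and 11.49. CANA exceeded HFD by 0.44 (SE 0.12, limma adjusted p = 0.225) and CR by 0.41 (SE 0.12, adjusted p = 0.284). Within the serial-number sets the difference from HFD was 0.50 and 0.37. Cbs, the enzyme before it, was at 9.97 ± 0.09 in CANA, 9.88 ± 0.31 in HFD and 9.89 ± 0.19 in CR (SD).

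Agxt converts glyoxylate to glycine in peroxisomes and so limits oxalate. Agxt read 9.06, 9.22, 9.21 and 9.21 in HFD, 9.53, 10.02, 9.33 and 9.52 in CANA and 9.08, 9.36, 9.49, 9.07 and 9.18 in CR. All CANA arrays lay above all HFD arrays, but 2 of 5 CR arrays reached into the CANA range. CANA minus HFD was 0.42 (SE 0.14, limma adjusted p = 0.298), and it was 0.28 without CANA replicate 2 (adjusted p = 0.469). Gldc, of the glycine cleavage system, varied more within CANA, from 7.87 to 9.03, than within HFD or CR. It had a CANA minus HFD difference of -0.02 with a 95% interval of -0.46 to 0.42.

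In the alanine and aspartate group, the 2 alanine aminotransferases lay on opposite sides of HFD. Gpt2 encodes the mitochondrial enzyme. Gpt2 read 10.16, 10.28, 10.62 and 10.52 in HFD, 10.45, 10.75, 10.67 and 10.53 in CANA and 10.56, 10.49, 10.29, 10.52 and 10.63 in CR. Its CANA minus HFD difference was 0.21 (SE 0.12, limma adjusted p = 0.648), and the groups overlapped. Gpt, the cytosolic enzyme, had 9.03 ± 0.19 in CANA, 9.21 ± 0.06 in HFD and 9.20 ± 0.17 in CR (SD), a difference of -0.17 from HFD (adjusted p = 0.730). Neither passed, and no test of the difference between the 2 genes was made. Got2, the mitochondrial aspartate aminotransferase, differed by -0.04, and its second, dimmer probe set gave -0.13.

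Of the 6 genes of branched-chain amino acid breakdown, 5 lay above HFD with the drug and 5 with restriction, with medians of 0.10 and 0.09. Bckdha, a subunit of the dehydrogenase that commits branched-chain keto acids to oxidation, had the smallest p. Bckdha read 9.23, 9.02, 9.36 and 9.09 in HFD, 9.36, 9.49, 9.35 and 9.20 in CANA and 9.21, 9.32, 9.23, 9.31 and 9.31 in CR. The CANA range of 9.20 to 9.49 overlapped the HFD range of 9.02 to 9.36, and the difference was 0.17 (SE 0.10, limma adjusted p = 0.645). The other subunits of that complex, Bckdhb and Dbt, differed by 0.13 and 0.17. Ivd, Hibch and the first transaminase Bcat2 differed by 0.08, 0.05 and -0.03.

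Histidine breakdown gave 3 of 4 genes below HFD with the drug. Uroc1, the urocanase of the second step, had the lowest difference among all 34. Uroc1 read 10.04, 9.93, 10.26 and 10.61 in HFD, 9.65, 10.40, 10.05 and 9.84 in CANA and 10.24, 10.20, 10.23, 10.34 and 10.33 in CR. The groups overlapped, and the difference of -0.22 (SE 0.16, limma adjusted p = 0.755) was 0.05 within serial numbers 1 to 8 and -0.49 within 9 to 14. Hal, Amdhd1 and Ftcd, which act before and after it, differed by -0.02, 0.02 and -0.10.

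Proline and hydroxyproline breakdown lay below CR in all 3 of its genes. Prodh is the mitochondrial dehydrogenase that starts proline oxidation. Prodh read 9.50, 9.39, 9.67 and 9.65 in HFD, 9.25, 9.52, 9.42 and 9.17 in CANA and 9.91, 9.48, 9.25, 9.72 and 9.73 in CR. CANA replicate 4 was the lowest array and CR replicate 1 the highest, and the groups overlapped. The difference was -0.28 against CR (SE 0.13, limma adjusted p = 0.571) and -0.21 against HFD (adjusted p = 0.709). Prodh2, its counterpart for hydroxyproline, differed by -0.11 from HFD and by -0.20 from CR.

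**Figure D2:**
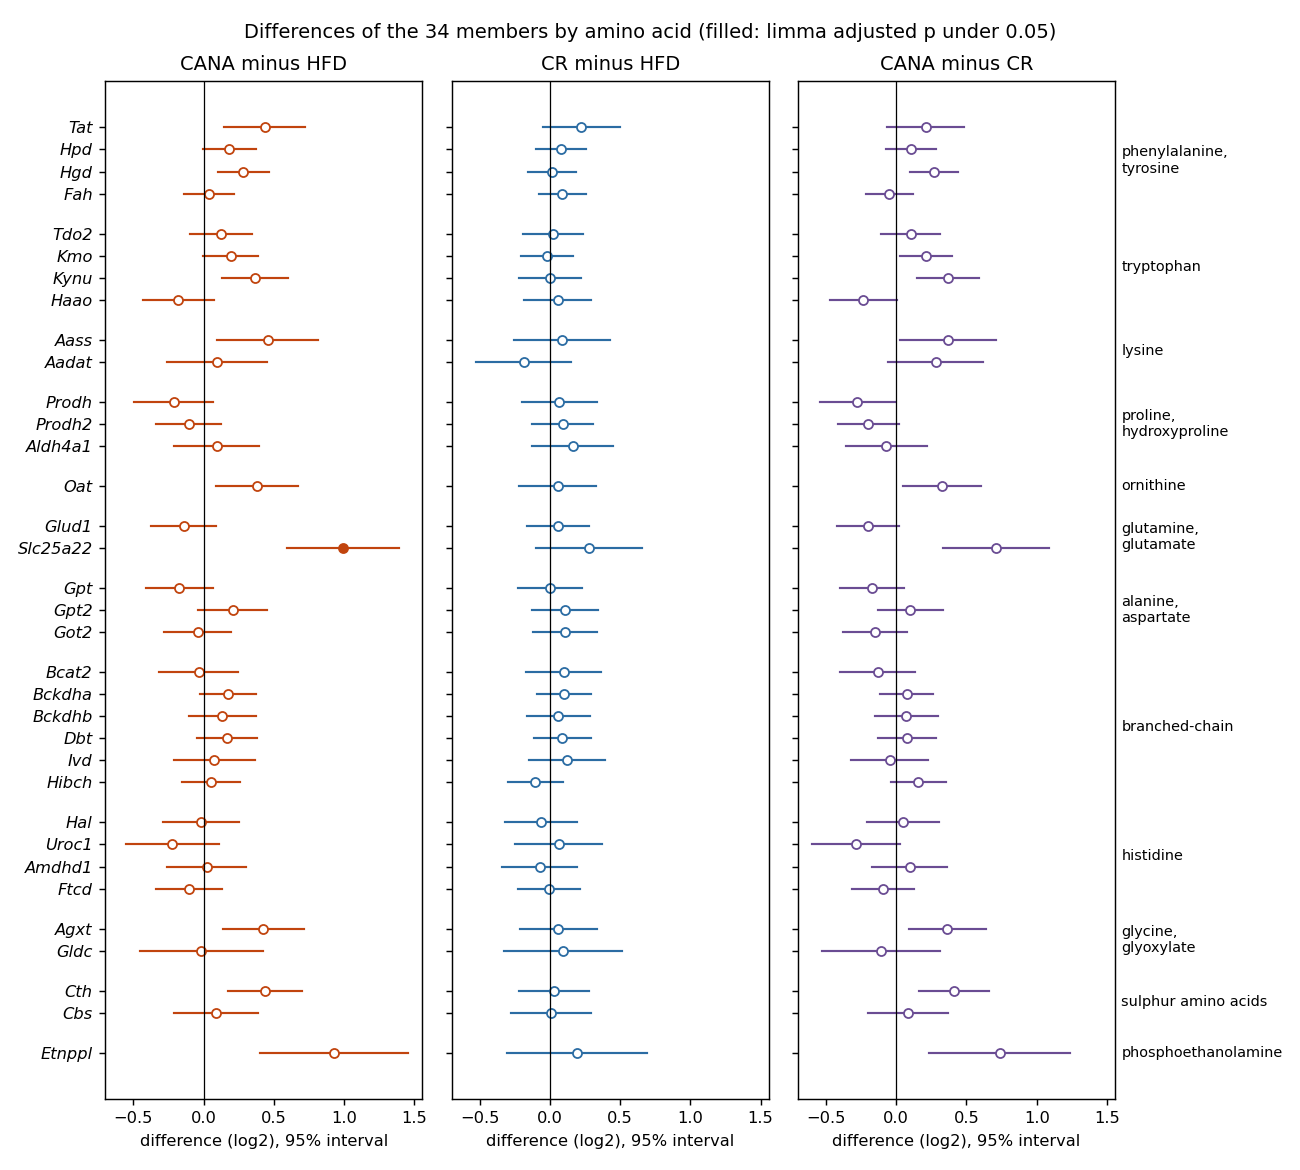
Differences between group means (horizontal axis, log2, with 95% intervals from the limma fit) of the 34 genes, grouped by amino acid, in 3 panels for CANA minus HFD, CR minus HFD and CANA minus CR. A filled point passed the adjusted test. The single filled point is Slc25a22 at 0.99 in CANA minus HFD, and in the middle panel all 34 intervals include 0.

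Caloric restriction against the diet alone asked what restriction to a matched weight does without the drug. In limma 0 of 34 genes were called, and 0 of 34 had an unadjusted p under 0.05, where 0% and 3.74% of all genes did. Of the 34, 26 lay above HFD, where 46.4% of all genes did, at a median of 0.06 against -0.01, and this median was 0.09 within serial numbers 1 to 8 and 0.0049 within 9 to 14. In 0 of 34 were the arrays of the groups apart, where 1.17% of all genes were. The 5 genes with the smallest p had an adjusted p of 0.999 each, and 2 of them, Slc25a22 and Tat, had the differences of 0.28 and 0.22 already described.

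Aldh4a1, the dehydrogenase that completes proline oxidation to glutamate and also serves hydroxyproline breakdown, came next by p. Aldh4a1 read 8.97, 8.90, 9.29 and 9.44 in HFD, 8.93, 9.59, 9.31 and 9.14 in CANA and 9.29, 9.34, 9.12, 9.38 and 9.42 in CR. The HFD arrays spanned more than the CR arrays, which lay inside their range, and the difference was 0.16 (95% interval -0.12 to 0.45). Aadat differed by -0.19 (interval -0.52 to 0.15). Hibch, a hydrolase of valine breakdown, differed by -0.11 (interval -0.30 to 0.09). Hibch read 7.81, 8.02, 7.62 and 7.82 in HFD, 7.82, 7.97, 7.80 and 7.89 in CANA and 7.78, 7.76, 7.58, 7.64 and 7.81 in CR. Its CR values lay in and just below the lower part of the HFD range.

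The drug was then set beside weight-matched restriction. These groups differ in the drug and in the restriction of calories, which cannot be told apart here. In limma 0 of 34 genes were called, where 0.0977% of all genes were called higher and 0.0526% lower in CANA. At an unadjusted p under 0.05, 9 of 34 were higher and 1, Prodh, was lower, where 4.11% and 4.32% of all genes were. In 5 of 34, Slc25a22, Kynu, Cth, Hgd and Oat, every CANA array lay above every CR array, where 1.42% of all genes did, and in 0 the reverse held, where 1.51% did. The mean was above CR in 21 of 34, where 48.8% of all genes were, with a median of 0.08 against -0.004 over all genes.

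By their means, 15 of 34 genes had the order CANA, CR, HFD from high to low, an order that 16.3% of all tested genes had. Its reverse, HFD above CR above CANA, was found in 2 of 34 and in 21.1% of all genes. CR above HFD above CANA, also with the drug group lowest, was found in 8 of 34 and in 17.4% of all genes. Those 8 were Haao, Prodh, Prodh2, Glud1, Got2, Bcat2, Uroc1 and Gldc. These orders are of means only, since no difference but that of Slc25a22 between CANA and HFD passed the adjusted test.

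CANA replicate 2 stood apart in this set. It held the highest value of all 13 arrays for 17 of 34 genes, where it did so for 11.6% of all genes. Averaged over the 34 genes, its deviation from the gene means was 0.29, against 0.10 in CANA replicate 3 and -0.15 to 0.05 in the other 11 arrays. The 10 periportal markers outside the set, which include Ass1 of the urea cycle, deviated by 0.34 in the same array. The 13 pericentral markers outside the set deviated by -8.7e-06 there, and the general hepatocyte markers by -0.05. The part of this array's zonation markers in the differences was not tested. Without CANA replicate 2, 19 of 34 genes remained above HFD in the mean (44.9% of all genes), the median difference was 0.02 against -0.02 over all genes, and 7 had an unadjusted limma p under 0.05 on the higher side, where 3.53% of all genes did. Against CR, 20 of 34 were above without it (47.0% of all genes), at a median of 0.02 against -0.01 over all genes, and 5 had such a p, where 3.37% of all genes did.

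**Figure D3:**
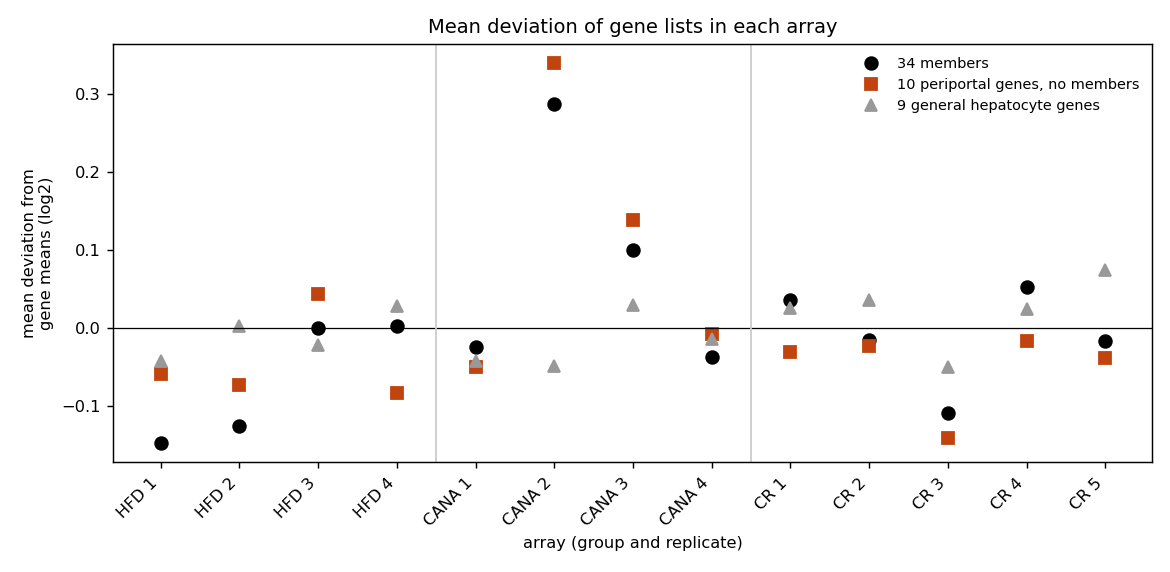
Mean deviation from the gene means (vertical axis, log2) in each of the 13 arrays (horizontal axis) of the 34 genes, of 10 periportal markers outside the set and of 9 general hepatocyte markers. CANA replicate 2 lies highest for the set, at 0.29, and for the periportal markers, at 0.34, while the general hepatocyte markers stay between -0.05 and 0.07.

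The serial numbers also moved with the set. Within numbers 1 to 8, 29 of 34 genes had a CANA mean above HFD, where 51.1% of all genes did. Within 9 to 14 it was 18 of 34, where 42.9% did. The median difference of the 34 was 0.21 in the first set and 0.03 in the second. In both sets 17 of 34 were above HFD (50% against 24.0% of all genes), 4 of 34 were below in both, and 12 were above in the first and below in the second. Slc25a22, Etnppl, Agxt, Cth, Tat, Oat, Hgd, Kynu and Aass were above HFD in both sets. For CR minus HFD, 25 of 34 lay above within 1 to 8 and 18 of 34 within 9 to 14 (48.1% and 47.2% of all genes), at medians of 0.09 and 0.0049. For CANA minus CR it was 26 and 18 of 34 (52.7% and 45.3% of all genes), at medians of 0.17 and 0.01. HFD replicates 1 and 2 averaged -0.15 and -0.13 over the 34 genes and HFD replicates 3 and 4 averaged 0.00 each.

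**Figure D4:**
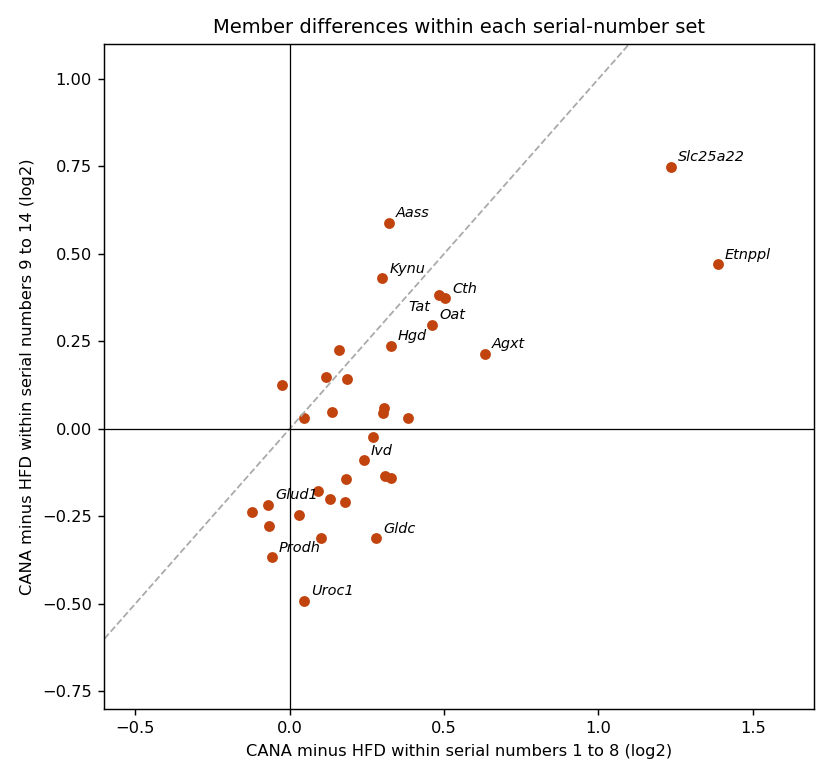
CANA minus HFD differences (log2) of the 34 genes within serial numbers 1 to 8 (horizontal axis) and within 9 to 14 (vertical axis), each from 2 arrays per group, with the line of equal values dashed. Slc25a22 lies at 1.23 and 0.75 and Etnppl at 1.39 and 0.47, and 12 of 34 points lie right of 0 and below it.

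Around these enzymes, the urea cycle takes up the nitrogen they free. Of its 8 listed genes, all tested, 0 were called in CANA minus HFD by limma and 6 lay above HFD at a median of 0.12, while 3 had an unadjusted p under 0.05 on the higher side and 1 on the lower. Slc25a15, the ornithine carrier of mitochondria, had the smallest p. Slc25a15 read 9.95, 9.95, 10.27 and 10.04 in HFD, 10.38, 10.63, 10.46 and 10.40 in CANA and 10.03, 10.14, 10.05, 10.32 and 10.08 in CR. Every CANA array lay above every other array, with differences of 0.41 from HFD (SE 0.10, adjusted p = 0.147) and 0.34 from CR (adjusted p = 0.274). Ass1 and Asl, the consecutive enzymes that build and split argininosuccinate, lay 0.52 and 0.34 above HFD (adjusted p = 0.280 and 0.425). Ass1 read 6.55, 6.24, 7.04 and 6.37 in HFD, 6.92, 7.18, 7.21 and 6.98 in CANA and 6.66, 7.22, 6.74, 6.90 and 6.65 in CR. Asl read 11.16, 11.00, 11.29 and 11.27 in HFD, 11.32, 11.73, 11.71 and 11.31 in CANA and 11.32, 11.24, 11.00, 11.46 and 11.44 in CR. Ass1 overlapped between CANA and HFD through HFD replicate 3, and Asl did not overlap.

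Nags makes the activator of the first urea cycle enzyme and lay the other way. Nags read 8.01, 7.93, 8.02 and 8.28 in HFD, 7.81, 7.99, 7.69 and 7.63 in CANA and 8.14, 8.20, 8.20, 8.39 and 8.08 in CR. Every CANA array lay below every CR array, by 0.42 in the means (-0.42, SE 0.10, limma adjusted p = 0.167), and the CANA minus HFD difference was -0.28 (adjusted p = 0.427). Cps1, Otc, Arg1 and Slc25a13 had differences from HFD between -0.13 and 0.14. Against CR, 0 of 8 urea cycle genes were called and 6 lay above, at a median of 0.09, with 1 gene on each side at an unadjusted p under 0.05.

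A wider list of other enzymes of amino acid breakdown held 55 genes, of which 46 were tested. The list also holds Mcat and Phyhd1, whose place in amino acid breakdown is less settled. In limma 0 of 46 were called with the drug against HFD, with 4 higher and 2 lower at an unadjusted p under 0.05, and 20 of 46 lay above HFD at a median of -0.04. Against CR 0 of 46 were called, with 3 higher and 4 lower at that p, and 16 of 46 lay above at a median of -0.05. Got1, the cytosolic aspartate aminotransferase, fell just outside the threshold. Got1 read 11.02, 10.97, 11.02 and 11.09 in HFD, 11.70, 12.15, 12.50 and 12.04 in CANA and 11.33, 10.94, 11.13, 11.90 and 11.97 in CR. All CANA arrays lay above all HFD arrays, which spread little, while CR replicates 4 and 5 reached 11.90 and 11.97. The difference of 1.07 from HFD (SE 0.21, adjusted p = 0.0514) was larger than that of Slc25a22.

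Shmt1, which moves 1-carbon units from serine, lay below both other groups with the drug. Shmt1 read 9.36, 9.35, 9.35 and 9.21 in HFD, 9.01, 9.10, 8.98 and 8.89 in CANA and 9.12, 9.38, 9.20, 9.33 and 9.19 in CR. No CANA array reached the lowest HFD or CR array, with a difference of -0.32 from HFD (SE 0.09, limma adjusted p = 0.195). Acmsd diverts tryptophan breakdown away from NAD. Acmsd read 8.11, 7.51, 7.52 and 7.74 in HFD, 8.18, 8.91, 8.46 and 7.86 in CANA and 7.48, 7.56, 7.99, 8.24 and 7.80 in CR. It overlapped between the groups, with a difference of 0.63 from HFD (SE 0.21, adjusted p = 0.324), and CANA replicate 2 was its highest array.

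Of 21 listed amino acid transporters 18 were tested. In limma 0 of 18 were called against HFD, with 3 higher and 2 lower at an unadjusted p under 0.05, and 11 of 18 lay above at a median of 0.05. Against CR 0 of 18 were called, with 5 higher and 0 lower at that p, and 8 of 18 lay above at a median of -0.08. Slc7a2 carries arginine and other basic amino acids into the cell. Slc7a2 read 10.35, 10.51, 10.60 and 10.65 in HFD, 10.88, 11.47, 11.24 and 11.16 in CANA and 10.47, 10.83, 10.59, 10.88 and 10.68 in CR. CANA lay above HFD in every array, by 0.66 (SE 0.13, adjusted p = 0.0514), and above CR by 0.49 (adjusted p = 0.171) with overlap. Slc38a2, a transporter of small neutral amino acids, and Slc16a10, which carries aromatic ones, lay 0.65 and 0.38 above HFD (adjusted p = 0.192 and 0.259). Slc38a2 read 9.57, 9.45, 9.84 and 9.47 in HFD, 9.94, 10.10, 10.52 and 10.38 in CANA and 9.28, 10.04, 9.94, 9.80 and 10.19 in CR. Slc16a10 read 9.11, 8.85, 9.22 and 9.13 in HFD, 9.43, 9.52, 9.49 and 9.38 in CANA and 8.85, 9.23, 8.97, 9.28 and 9.29 in CR. In both genes the lowest CANA array was above the highest HFD array.

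Of 14 listed regulators of these enzymes 13 were tested, and 1 was called higher against HFD and 0 lower, with 7 of 13 above at a median of 0.07. At an unadjusted p under 0.05, 3 were higher and 2 lower. The 2 lower ones, named after their values were seen, were Nr3c1, the glucocorticoid receptor, at 7.67 ± 0.12 in CANA and 7.93 ± 0.05 in HFD, and Cebpa, a hepatocyte transcription factor, at 9.32 ± 0.28 and 9.66 ± 0.04 (SD, n = 4 each). In both every CANA array lay below every HFD array, without passing the adjusted limma test (adjusted p = 0.361 and 0.536). Sik1, a kinase that cAMP induces and that restrains CREB coactivators, rose. Sik1 read 6.94, 7.00, 6.73 and 6.93 in HFD, 7.55, 8.22, 8.98 and 8.48 in CANA and 6.98, 6.89, 7.15, 7.59 and 7.60 in CR. CANA exceeded HFD in every array, by 1.41 (SE 0.23, limma adjusted p = 0.0326), and CR by 1.06 (adjusted p = 0.0894), where CANA replicate 1 at 7.55 lay just below CR replicates 4 and 5. The call of Sik1 was lost without any 1 of HFD replicates 1 to 4 (adjusted p = 0.0586, 0.0673, 0.0939 and 0.0687) or CANA replicates 2, 3 or 4 (0.0662, 0.0785 and 0.0764).

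Ppargc1a is a coactivator of the fasting response. Ppargc1a read 6.08, 6.60, 6.51 and 6.53 in HFD, 7.13, 7.52, 8.52 and 8.01 in CANA and 6.56, 6.74, 6.08, 7.26 and 6.89 in CR. All CANA arrays but replicate 1 lay above all CR arrays, and all 4 lay above HFD, with differences of 1.37 from HFD (SE 0.26, limma adjusted p = 0.0514) and 1.09 from CR (adjusted p = 0.144). Cebpb, a transcription factor of the C/EBP family, lay 0.41 above HFD (SE 0.10, adjusted p = 0.166). Cebpb read 8.31, 8.21, 8.17 and 7.98 in HFD, 8.71, 8.45, 8.53 and 8.61 in CANA and 8.30, 8.34, 8.23, 8.08 and 8.47 in CR. Every CANA array exceeded every HFD array, and CR replicate 5 at 8.47 lay above the lowest CANA array. Against CR, 0 of 13 regulators were called, with 3 higher and 0 lower at an unadjusted p under 0.05, and 8 of 13 lay above at a median of 0.02.

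Markers of other cells gave the following beside these results. The Kupffer cell and macrophage markers, of which 9 of 10 were tested, had summed levels (log2 of the sum of linear values) of 9.73 to 10.65 in HFD, 10.10 to 10.57 in CANA and 9.56 to 10.48 in CR. Sinusoidal endothelial markers (8 of 8 tested) ranged over 10.72 to 11.09, 10.58 to 11.05 and 10.73 to 11.15 in that order, and stellate cell and fibroblast markers (9 of 9) over 10.63 to 11.03, 10.78 to 11.04 and 10.44 to 10.95. The general hepatocyte markers had summed levels of 16.25 to 16.31, 16.24 to 16.27 and 16.27 to 16.31. Periportal markers outside the set spanned 14.87 to 14.95, 14.87 to 15.18 and 14.81 to 14.97, and pericentral ones 14.60 to 14.73, 14.62 to 14.67 and 14.65 to 14.75. The groups overlapped in each of these ranges. By gene, with the drug, 8 of 9 Kupffer cell markers lay above HFD and 9 of 9 above CR, at medians of 0.10 and 0.16. Of the periportal markers outside the set 7 of 10 lay above HFD and 9 of 10 above CR, at medians of 0.14 and 0.17, and of the pericentral ones 4 of 13 and 3 of 13, at -0.07 and -0.12. Of the endothelial markers 1 of 8 lay above HFD and 1 of 8 above CR, at -0.13 and -0.13. In size these medians were above the 0.09 and 0.08 of the 34 genes, except that of pericentral markers against HFD. Of the general hepatocyte markers 3 of 9 lay above HFD and 1 of 9 above CR, at -0.02 and -0.04, and of the stellate cell markers 4 of 9 and 5 of 9, at -0.0047 and 0.10.

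Lists of the remaining cell types were dim on these arrays. Tested were 3 of 6 cholangiocyte markers, 4 of 8 of lymphocytes, 1 of 5 of neutrophils, 2 of 5 of adipocytes, 2 of 4 of skeletal muscle, 2 of 4 of kidney, 1 of 5 of exocrine pancreas and 0 of 6 of red blood cells. Their summed levels in HFD, CANA and CR were 6.63 to 6.91, 6.55 to 6.88 and 6.69 to 6.93 for cholangiocytes, 7.11 to 7.21, 7.13 to 7.28 and 7.01 to 7.33 for lymphocytes, and 5.50 to 5.64, 5.55 to 5.74 and 5.47 to 5.71 for neutrophils. Those of adipocyte, skeletal muscle, kidney, pancreas and red blood cell markers also overlapped between all groups. In limma 0 genes of any cell type or zonation list were called in any comparison. At an unadjusted p under 0.05 in CANA minus HFD, 3 periportal markers outside the set were higher and 1 pericentral one lower, with 0 in every other list. In CR minus HFD there were 0. In CANA minus CR, the same count was 1 higher and 1 lower for periportal markers outside the set, 1 and 2 for pericentral ones, 0 and 2 for sinusoidal endothelium, 0 and 1 for cholangiocytes and for skeletal muscle, and 1 and 0 for adipocytes and for kidney. The part of cell composition in the differences of the 34 genes was not tested.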

How the data were processed

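Liver RNA (250 ng per array, TRIzol extraction) was put on Affymetrix arrays after WT Plus labelling, per the labels. The authors deposited log2 expression values made with RMA in Affymetrix Expression Console, per the submitters' processing notes. Versions and genome build are not given in the sources used here, and scanner files were not used here. The number of arrays limits the precision.

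Of 41345 probe sets, 23521 had 1 gene symbol, of which 23328 matched RefSeq by Entrez ID. Not used were 1814 probe sets with more than 1 symbol and 16010 without any. For 1082 genes with several probe sets, that with the highest mean was kept. Genes below the 40th percentile of gene means (under 3.95) were left out, leaving 13308. They were fitted with limma 3.58.1 in R 4.3.3, without covariates (10 residual and 5.71 prior degrees of freedom), two-sided, and the fit was tried on simulated data. There, 46.3%, 53.3% and 54.3% of differences of 0.5 were called in CANA minus HFD, CR minus HFD and CANA minus CR. For differences of 1 it was 94%, 96.7% and 93.7%. Of the calls, 6.65%, 5.26% and 4.1% were false. A true difference of 0.5 was thus often not called. No test was made over a list.

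Genes described array by array were those called, the 12, 8 and 5 with the smallest p in CANA minus HFD, CANA minus CR and CR minus HFD, and the 1 with the smallest p of each amino acid group. For the urea cycle, other breakdown, transporter and regulator lists, called genes and the 3 with the smallest p in either CANA comparison were named. Other genes named by value complete a pathway and were chosen after their values were seen. The members and lists were chosen with earlier results of these data known. Of the 3 genes with the smallest p in CANA minus HFD, promoters of Slc25a22 and Etnppl are shown. Alternatives tried were other filters, normalizations, variance models and array weights, averaging of probe sets, a fit to the 2 groups compared, a replicate block, serial numbers as covariate, factor or split, an adjusted p of 0.10, and leaving out each array in turn.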

Additional observations from a re-analysis of the deposited data

Results flagged for a closer look

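In 4 of 102 gene-by-group sets (3.92%) the highest or lowest array lay far from the rest of its group by Dixon's criterion, where chance gives about 1 in 20. Haao, of the tryptophan route to NAD, was 10.88 in CANA replicate 1, and the other 3 CANA arrays were 10.62 to 10.65. Aass, the first enzyme of lysine breakdown, was 10.19 in HFD replicate 3, and the nearest HFD array was 10.55. Ftcd, the last enzyme of histidine breakdown, was 10.18 in CANA replicate 2, and the nearest CANA array was 9.73. Agxt, the glyoxylate aminotransferase, was 9.06 in HFD replicate 1, and the other 3 HFD arrays were 9.21 to 9.22.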

How the results depend on the processing

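Of all genes, 22 were called in CANA minus HFD. The count was 12 without a filter, 14 with a filter at the 20th percentile, 40 with the serial number as a covariate, 46 with the serial-number set as a factor, 56 at an adjusted p under 0.10, 2 within serial numbers 1 to 8, 0 within 9 to 14, and 3 to 38 when 1 array was left out. It was 3 without CANA replicate 3 and 38 without CANA replicate 1. Of the 34 genes, 1 was called, Slc25a22. That count was 0 without a filter, with the 20th percentile filter, median centring, robust eBayes, array weights, only the arrays compared, and within serial numbers 1 to 8 or 9 to 14, and 0 to 1 when 1 array was left out. Slc25a22 was called in 9 of 27 alternatives and in 3 of 13 fits without 1 array, with an adjusted p from 0.00455 to 0.174 and a difference from 0.75 to 1.23. The median CANA minus HFD difference of the 34 was 0.09, and it was 0.21 within serial numbers 1 to 8 and 0.03 within 9 to 14.

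For CR minus HFD, 0 genes were called, and 1 with the replicate block, with the serial number as a covariate and with the serial-number set as a factor. For CANA minus CR, 20 were called, 34 at an adjusted p under 0.10, 5 within serial numbers 1 to 8, 0 within 9 to 14, and 7 to 23 when 1 array was left out. Of the 34 genes, 1 was called in CANA minus CR with the serial number as a covariate, Slc25a22 (adjusted p = 0.0152, and up to 0.551 in its other alternatives).

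Signs were compared across the alternatives only for genes described array by array, in the comparisons for which they were chosen. Among these, the difference turned to 0.0452 for Uroc1 in CANA minus HFD within serial numbers 1 to 8. Within 9 to 14 it turned to -0.0302 for Slc25a22 and 0.0021 for Hibch in CR minus HFD. There it also turned to -0.038 for Bckdha in CANA minus CR. Other differences of the set changed sign too. In CANA minus HFD, Tdo2 had 0.12 over all arrays and -0.02 within 9 to 14, and Cbs 0.09 and -0.13. None of these was called, and the cause of the changes was not tested. Within each serial-number set a group holds 2 or 3 arrays, so fewer samples stand behind these values.

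Same-numbered replicates of different groups correlated at -0.15 to 0.30 around their group means, above 0.1 in 7 of 12 pairs and not in every pair, so the arrays were not treated as paired, though a pairing is not shown to be absent. With the replicate block 29 genes were called in CANA minus HFD and 17 in CANA minus CR, and of the 34 genes 1 and 0, as without it.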
